A study of Mus musculus with 16 samples.

Results

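Promoter peaks of histone H3 acetylated at lysine 27 (H3K27Ac) that had an overlapping peak in every condition except Des+/+ hearts after swimming were followed across the 4 H3K27Ac peak lists of the study. The members were peaks of the Des+/+ basal list that lay within 1000 bp of a transcription start, were under 2500 bp wide and had an input height under 10 reads. Each had to overlap a peak by at least 1 bp in both Des-/- lists and no peak in Des+/+ swim. The members were thus chosen by measured peak presence in the 4 lists, so that presence, and the heights that set it, are given as a description. These limits left 9976 promoter peaks of the 15757 in the Des+/+ basal list, and 977 of them, 9.79%, were missing only in Des+/+ swim. They were annotated to 951 genes, 23 of which had more than 1 such peak. The 8 peak lists of the series held 56149 peaks in all.

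The chromatin came from cardiomyocytes, the contractile cells of the heart, isolated by enzymatic perfusion from 3-month-old mice with intact desmin (Des+/+) or without desmin (Des-/-), the intermediate filament protein of muscle. Basal mice had not been exercised, and swim mice had undergone swimming exercise. H3K27Ac and lamin A/C were precipitated in each of these 4 groups with 1 library each. The chromatin of a library was pooled from several mice. No spread between replicates exists, and no difference between groups could be tested. The height of a peak is the number of reads piled up at it, and the input height is the same number in unprecipitated chromatin. Where 3 heights follow a gene, they stand in the order Des+/+ basal first, Des-/- basal second and Des-/- swim last. All intervals given here are 95% Wilson intervals for shares or exact Poisson intervals for heights, and they cover counting error only.

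H3K27Ac is laid down by the acetyltransferases CBP and p300 and is removed by histone deacetylases. It marks promoters and enhancers that are in use, and it cannot coexist with methylation of the same lysine by the Polycomb complex. At a promoter the mark usually flanks the nucleosome-depleted start site, so a single active promoter can appear as 1 broad peak or as 2 neighbouring peaks.

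Of 8 cardiomyocyte marker genes, 7 had a promoter peak in every list but Des-/- swim, where 6 did, and the one lacking there was Actc1. The natriuretic peptide gene Nppa had none in any list. All 4 endothelial markers had a promoter peak in both basal lists, and 3 had one in each swim list. Their summed heights were 112 reads in Des+/+ hearts before and 67 after swimming, and 97 before and 79 after in Des-/- hearts. The endothelial cadherin gene Cdh5 was the marker without a peak in either swim list. No promoter peak was found in any list for the 4 leukocyte markers Ptprc, Csf1r, Cd68 and Lyz2 or for the 4 smooth muscle and pericyte markers. Of 4 fibroblast markers, 1 had a promoter peak in Des+/+ basal, 2 had one in Des-/- basal and none had one after swimming.

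The promoters below are shown because they hold the values on which the results turn. Each line gives 250 bases before and 50 bases from the annotated start, read 5′ to 3′ on the strand of the gene from the RefSeq genome GRCm38.p6, which is the build of the peak lists (mm10). Malat1, Rlim and Luc7l2 had the highest Des-/- swim peaks among the members. Ogfod2 and Khnyn were the highest members with no Des+/+ swim peak nearby. Sox7, Isg15, Ifit3 and Usp18 stand for the endothelial and interferon-response genes described further on, and were picked after their values were seen. Capitals mark matches on either strand to the GC box GGGCGG of Sp and Klf factors, the CCAAT box CCAAT of NF-Y, and GAAANNGAA, the motif of interferon regulatory factors. Neighbouring matches may overlap. The windows are chr19:5799036-5799335, minus strand for Malat1, chrX:103981235-103981534, minus strand for Rlim, chr6:38551593-38551892, plus strand for Luc7l2, chr5:124112047-124112346, plus strand for Ogfod2, chr14:55884697-55884996, plus strand for Khnyn, chr14:63943423-63943722, plus strand for Sox7, chr4:156200747-156201046, minus strand for Isg15, chr19:34583281-34583580, plus strand for Ifit3 and chr6:121245656-121245955, plus strand for Usp18.
Malat1: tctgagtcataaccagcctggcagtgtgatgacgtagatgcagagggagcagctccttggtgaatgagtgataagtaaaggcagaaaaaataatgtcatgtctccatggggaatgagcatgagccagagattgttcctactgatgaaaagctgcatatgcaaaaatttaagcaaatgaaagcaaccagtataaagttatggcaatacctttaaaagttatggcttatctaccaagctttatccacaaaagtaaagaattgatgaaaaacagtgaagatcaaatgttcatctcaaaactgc
Rlim: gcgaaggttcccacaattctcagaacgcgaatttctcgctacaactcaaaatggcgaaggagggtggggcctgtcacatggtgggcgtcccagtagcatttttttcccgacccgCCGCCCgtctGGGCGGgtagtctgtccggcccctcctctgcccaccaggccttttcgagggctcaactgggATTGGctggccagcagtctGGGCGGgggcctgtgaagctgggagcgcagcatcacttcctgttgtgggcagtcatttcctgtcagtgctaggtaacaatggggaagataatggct
Luc7l2: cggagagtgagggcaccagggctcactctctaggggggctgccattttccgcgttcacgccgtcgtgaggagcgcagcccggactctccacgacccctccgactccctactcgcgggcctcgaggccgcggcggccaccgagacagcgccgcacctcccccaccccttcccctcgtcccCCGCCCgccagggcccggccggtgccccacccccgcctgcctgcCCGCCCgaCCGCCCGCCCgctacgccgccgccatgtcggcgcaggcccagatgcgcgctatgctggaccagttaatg
Ogfod2: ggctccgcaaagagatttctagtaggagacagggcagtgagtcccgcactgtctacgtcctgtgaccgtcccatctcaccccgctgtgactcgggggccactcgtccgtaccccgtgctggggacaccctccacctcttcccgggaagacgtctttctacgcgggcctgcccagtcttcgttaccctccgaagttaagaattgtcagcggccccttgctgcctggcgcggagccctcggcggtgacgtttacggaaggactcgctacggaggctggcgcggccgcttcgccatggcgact
Khnyn: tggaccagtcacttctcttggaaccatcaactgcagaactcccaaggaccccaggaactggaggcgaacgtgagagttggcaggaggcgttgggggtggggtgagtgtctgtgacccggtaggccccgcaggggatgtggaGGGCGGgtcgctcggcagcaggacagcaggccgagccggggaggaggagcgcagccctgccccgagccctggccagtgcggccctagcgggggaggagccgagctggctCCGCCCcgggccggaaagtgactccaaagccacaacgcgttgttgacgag
Sox7: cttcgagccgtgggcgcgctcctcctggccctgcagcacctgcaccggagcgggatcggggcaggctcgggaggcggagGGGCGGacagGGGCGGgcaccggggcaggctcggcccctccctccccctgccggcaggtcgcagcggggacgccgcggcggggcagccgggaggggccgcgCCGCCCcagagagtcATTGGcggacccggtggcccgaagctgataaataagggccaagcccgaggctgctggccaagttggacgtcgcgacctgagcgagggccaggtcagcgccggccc
Isg15: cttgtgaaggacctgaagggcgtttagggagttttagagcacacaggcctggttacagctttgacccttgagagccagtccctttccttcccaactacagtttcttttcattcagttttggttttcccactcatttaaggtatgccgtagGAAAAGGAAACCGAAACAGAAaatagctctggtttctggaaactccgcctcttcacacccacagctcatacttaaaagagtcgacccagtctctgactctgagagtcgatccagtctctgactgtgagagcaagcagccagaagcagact
Ifit3: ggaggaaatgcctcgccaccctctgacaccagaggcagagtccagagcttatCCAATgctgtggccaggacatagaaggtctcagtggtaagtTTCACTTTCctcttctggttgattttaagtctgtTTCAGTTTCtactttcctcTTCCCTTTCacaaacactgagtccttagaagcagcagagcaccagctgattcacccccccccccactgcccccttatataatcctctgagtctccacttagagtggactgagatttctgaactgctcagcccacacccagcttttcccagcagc
Usp18: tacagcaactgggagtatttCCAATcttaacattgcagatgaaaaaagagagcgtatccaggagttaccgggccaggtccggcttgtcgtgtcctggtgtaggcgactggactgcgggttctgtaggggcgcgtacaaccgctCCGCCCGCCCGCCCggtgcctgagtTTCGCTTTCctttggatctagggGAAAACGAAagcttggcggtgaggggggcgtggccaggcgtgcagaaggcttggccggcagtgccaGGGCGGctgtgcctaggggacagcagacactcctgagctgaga

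The highest members lay beside an H3K27Ac peak that was present in Des+/+ swim. Malat1, a nuclear long non-coding RNA, had 19, 107 and 76 reads. Its Des+/+ basal peak at chr19:5798471-5799563 ended 22 bp before a Des+/+ swim peak of 69 reads at chr19:5799586-5803655, and its Des-/- swim partner, 5355 bp wide at chr19:5799313-5804667, overlapped that same Des+/+ swim peak. H3K27Ac was thus present in all 4 lists within 1000 bp of the annotated start used here, with different peak borders. Other starts of Malat1 were not examined.

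Rlim, an X-linked ubiquitin ligase, showed the same layout with 25, 94 and 65 reads, 72 bp from a Des+/+ swim peak of 47 reads. Luc7l2, a splicing factor, had 21, 98 and 58 reads and lay 93 bp from a Des+/+ swim peak of 60 reads. In all 3 genes the Des+/+ basal height was far below that of the Des-/- partners, which were wider and overlapped the neighbouring Des+/+ swim peak. The Des+/+ basal peaks of Malat1, Rlim and Luc7l2 were 1093, 547 and 343 bp wide. Their Des-/- swim partners were 5355, 1754 and 2919 bp wide, so these heights do not compare the same stretch between genotypes.

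Of the 20 members with the highest Des-/- swim peak, 18 had a Des+/+ swim peak within 500 bp, and all 9 members of 40 reads or more did. These 9 were Malat1, Rlim, Luc7l2, the GTP-binding protein gene Gtpbp6 (15, 62 and 53 reads), the docking protein gene Gab2 (15, 61 and 50), the ubiquitin ligase genes Siah1a (15, 74 and 46) and Cblb (20, 46 and 45), the small GTPase gene Rhog (18, 55 and 45) and the adiponectin receptor gene Adipor2 (17, 54 and 42). The 2 of the 20 without one were Ogfod2 and Khnyn. Slx4ip, Tbc1d10c, Nab2, Fars2, Cavin1, Crip1, Zc3h7a, Kmt2c and Otud5 had Des-/- swim heights of 39 down to 35 reads and a Des+/+ swim peak 7 to 180 bp away. Kmt2c encodes a histone H3 lysine 4 methyltransferase, and Cavin1 encodes a coat protein of caveolae.

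Among all members, 218 of 977, or 22.3%, had a Des+/+ swim peak within 500 bp, at a median gap of 131 bp. The gap was at most 1000 bp for 243 members and at most 5000 bp for 296. At 116 members a Des-/- partner itself overlapped a Des+/+ swim peak. The smallest gaps were 1 bp at Nfatc3, a calcineurin-regulated transcription factor, 6 bp at Atp10d, 7 bp at Mga and Zc3h7a, and 12 bp at Ninj1. The other 759 members had no Des+/+ swim peak within 500 bp. They made up 11.9% of the 6382 promoter peaks present in both Des-/- lists, against 15.3% for all members. For 130 of the 759, the gene still had a peak elsewhere in the Des+/+ swim list. Of the 951 genes, 189 also had another promoter peak that was kept in all 4 lists, and 45 also had one missing only in Des-/- swim.

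**Figure D1:**
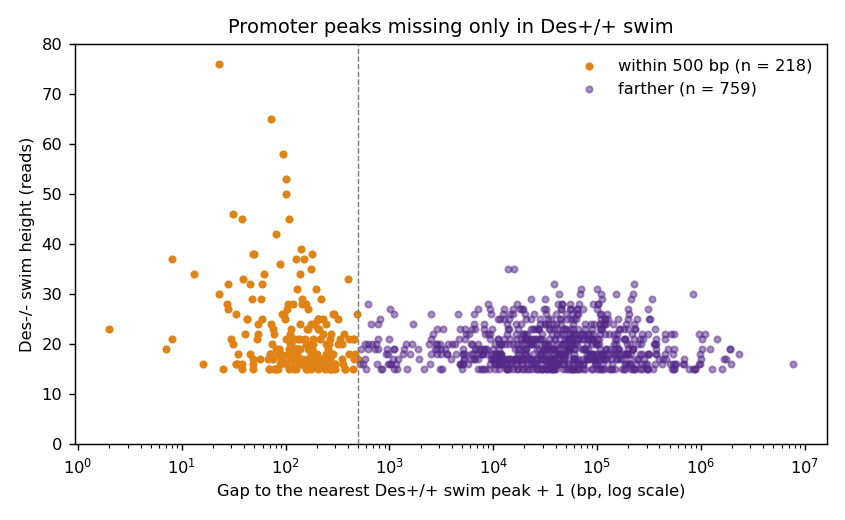
Each point is 1 of the 977 members, with its gap to the nearest Des+/+ swim peak plus 1 bp on a log scale (x) and its height in Des-/- swim in reads (y). All members above 35 reads lie left of the dashed 500 bp line (218 members), while the 759 to its right reach at most 35 reads.

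Members away from any Des+/+ swim peak reached at most 35 reads. Ogfod2, an oxygenase-domain gene, had 37, 32 and 35 reads, and its nearest Des+/+ swim peak was 15764 bp away. Khnyn, which encodes an RNA-binding endonuclease-like protein, had 28, 42 and 35 reads, with the nearest Des+/+ swim peak at 13994 bp. The bounds of an exact Poisson interval for their Des-/- swim height of 35 reads were 24.4 and 48.7, above the smallest height of 15 reads that any H3K27Ac list held.

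The next highest included genes for proteins that act on chromatin, although promoters of the chromatin list as a whole were missing at 15.4%. Chd6, a chromatin remodeller, had 24, 30 and 32 reads. Mysm1, a histone H2A deubiquitinase, had 30, 35 and 31 reads.

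Heights of 28 to 44 reads were seen at further genes of this kind. Uhrf2, which binds modified histones and DNA, had 28, 31 and 30 reads. Mta1, a subunit of the NuRD deacetylase complex, had 30, 33 and 29 reads. Mrfap1, a partner of the chromatin protein Morf4, had 32, 44 and 31 reads.

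Most members were near the smallest height the lists held. The lowest height in every list was 15 reads, whose Poisson interval runs from 8.40 to 24.7 reads. A height of 24 reads is the first whose interval, 15.4 to 35.7, starts above 15, and 792 of 977 members, or 81.1%, were below it in Des-/- swim. Only 85 members reached 24 reads in all 3 lists where they were present, 67 of them with no Des+/+ swim peak within 500 bp. At these heights, a promoter without the mark and one just under the lowest listed height cannot be told apart.

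Absence from Des+/+ swim was most frequent among low peaks. The comparison asks whether promoters present in both Des-/- lists were missing from Des+/+ swim at another rate than promoters of equal height were missing from Des-/- swim. Of promoter peaks 15 to 17 reads high in Des-/- swim, 45.7% (42.2 to 49.3) were missing from Des+/+ swim. The share was 18.6% (16.4 to 21) at 21 to 24 reads, 9.44% (7.88 to 11.3) at 25 to 29 reads and 0.743% (0.391 to 1.41) at 40 reads or more. At 40 reads or more, 0 of 1211 were missing with no Des+/+ swim peak within 500 bp.

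The mirror class held 1106 promoter peaks missing only in Des-/- swim, or 17% of the 6511 present in Des-/- basal and Des+/+ swim. By the height of the remaining swim peak, the shares missing from Des-/- swim were 40% (37.4 to 42.6) for 15 to 17 reads, 14.3% (12.4 to 16.5) for 21 to 24 reads and 4.79% (3.60 to 6.35) for 25 to 29 reads, each below the Des+/+ swim share. At 40 reads or more the share was 0.861% (0.418 to 1.77), slightly above it. Had the Des-/- swim loss rates applied at the height of each Des-/- swim peak, 12% would have been missing where 15.3% (14.4 to 16.2) were. This order turned when peaks were matched on fold over input instead, with 24.7% given by the Des-/- swim losses. It also turned when the same 9228 peaks present in both basal lists were used for both genotypes, of which 29.4% were missing from Des+/+ swim and 30.8% from Des-/- swim.

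By Des+/+ basal height the share missing from Des+/+ swim was 73.2% (70.8 to 75.6) at 15 to 17 reads, where 70.2% (67.6 to 72.6) were missing from Des-/- swim. At 30 to 39 reads it was 6.59% (5.48 to 7.90) against 10.3% (8.96 to 11.9). The mean input height over all peaks was 5.48 reads in the Des-/- swim list and 2.80 to 3.06 reads in the other lists. The part of input and sequencing depth in these shares was not tested.

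**Figure D2:**
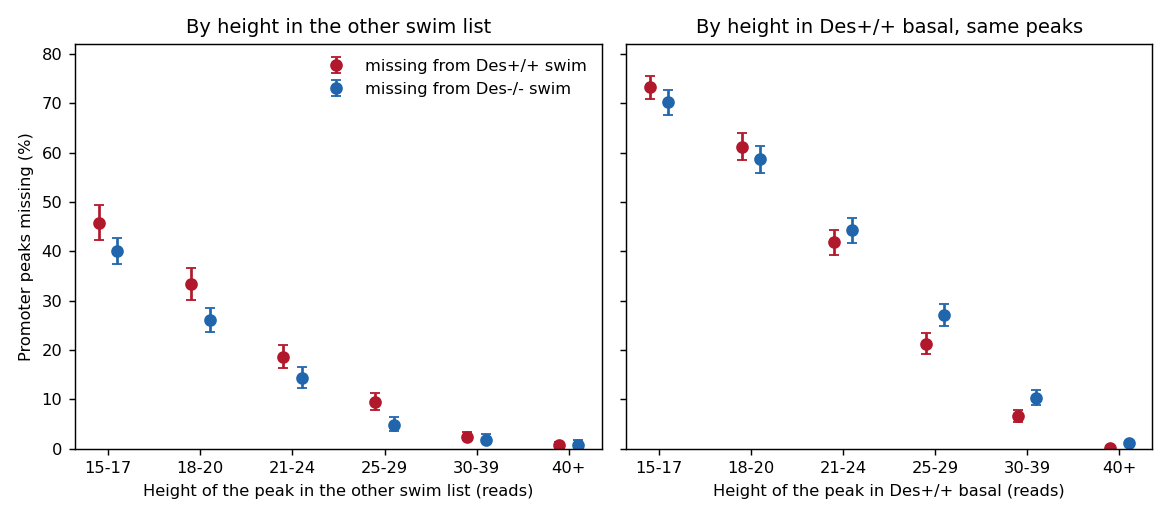
Share of promoter peaks missing from 1 swim list (y, percent, with 95% Wilson intervals) by peak height in reads (x). Left, by height in the other swim list, where the Des+/+ swim share is 45.7% at 15 to 17 reads and 0.743% at 40 or more; right, by Des+/+ basal height over the same peaks for both genotypes, where the shares run from 73.2% and 70.2% down to 0.182% and 1.09%.

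Against kept peaks of equal Des-/- swim height, members were lower in both basal lists. The 5405 promoter peaks found in all 4 lists were weighted so that each Des-/- swim height had the same share as among the members. The median Des+/+ basal height was then 21 reads (quartiles 18 and 25) in members and 26 reads (21 and 31) in kept peaks. In Des-/- basal it was 24 reads (20 and 29) against 28 reads (23 and 34). The median Des-/- swim height was 19 reads in both by construction.

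The gap was present at each height. Members of 15 to 17 reads in Des-/- swim had a median of 19 reads in Des+/+ basal against 23 in kept peaks, and members of 25 to 29 reads had 24 against 33. In Des+/+ basal, 23.7% (21.2 to 26.5) of members were only 15 to 17 reads high, against 8.01% of weighted kept peaks. At 333 members, or 34.1%, the Des-/- swim peak was higher than the Des+/+ basal peak, against 10.6% of weighted kept peaks. Without the members that lay within 500 bp of a Des+/+ swim peak the share was 31.8%. The mirror class had a median of 22 reads in Des+/+ basal and 25 in Des-/- basal.

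**Figure D3:**
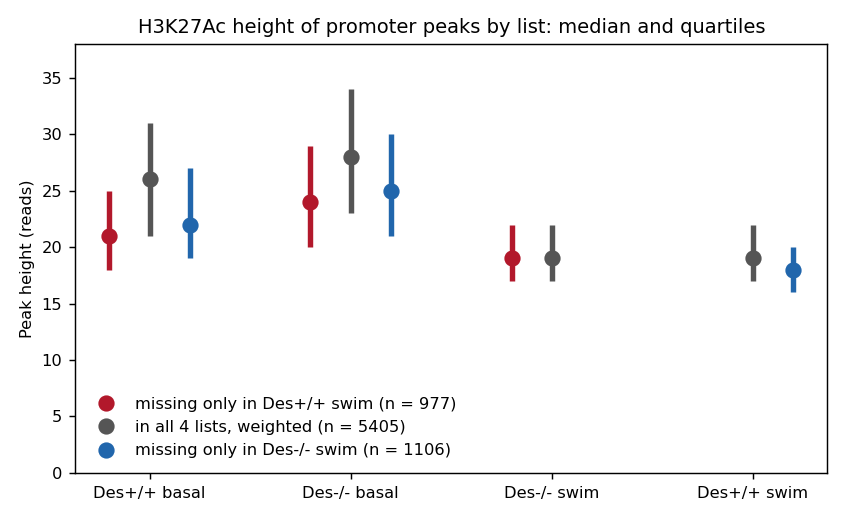
Median (point) and quartiles (bar) of peak height in reads (y) in each H3K27Ac list (x) for members, kept peaks weighted to the members' Des-/- swim height, and the mirror class. Members sit at 21 and 24 reads in the basal lists where weighted kept peaks sit at 26 and 28, and by rule they have no value in Des+/+ swim.

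Members were also narrower, with a median Des+/+ basal width of 715 bp against 962 bp in weighted kept peaks. The mean input height of the Des-/- swim partner was 5.28 reads in members and 5.17 in weighted kept peaks, and in Des+/+ basal it was 3.01 reads in both. The start lay under the peak in 73.5% of members and 79.7% of weighted kept peaks.

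Promoters of contraction genes were absent from the members. The list of sarcomere, calcium-handling and Z-disc genes had 24 promoter peaks in both Des-/- lists, and 0 of them (interval up to 13.8%) were missing from Des+/+ swim, against 15.3% of all such peaks. Des+/+ swim did lack other contraction peaks, which are not members because Des-/- swim lacked them too. Of the list's 68 promoter peaks within the limits, 18 were missing in both swim lists, as were 1740 of all 9976. Of 39 contraction promoters present in Des-/- basal and Des+/+ swim, 15, or 38.5% (24.9 to 54.1), were missing only in Des-/- swim, where the share over all peaks was 17%. These included Actn2, Ttn, Tnni3, Tcap, Cryab and Pln, and Tnni3, Tcap and Pln also had another promoter peak that Des-/- swim held. Beside this, the summed promoter heights of the 8 cardiomyocyte markers were 225 and 231 reads in the Des+/+ and Des-/- basal lists, 203 in Des+/+ swim and 140 in Des-/- swim. The part of that difference in the list's shares was not tested. Among kept peaks of equal Des-/- swim height the contraction list made up 1.04%, and among members 0% (0 to 0.392). That difference of -1.04 percentage points was -0.444 against unweighted kept peaks and -0.403 against kept peaks weighted by fold over input.

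Fuel-use genes had 4 of 45 promoters missing from Des+/+ swim, or 8.89% (3.51 to 20.7) against 15.3% over all peaks. They had 13 of 54 missing from Des-/- swim, or 24.1% (14.6 to 36.9) against 17%. Both intervals held the share over all peaks. The 4 were Cpt1a, which moves fatty acids into mitochondria (20, 21 and 29 reads), the Krebs cycle enzyme Suclg2 (26, 23 and 21), the pyruvate dehydrogenase kinase Pdk1 (20, 28 and 21) and the glycolytic enzyme Pgam1 (17, 17 and 17). Cpt1a and Pgam1 lay 220 and 216 bp from a Des+/+ swim peak.

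Desmin partners, junction and nuclear envelope genes had 4 of 21 promoters missing from Des+/+ swim. This was 19% (7.67 to 40), near the 15.3% over all peaks. From Des-/- swim, 10 of 27 were missing, or 37.0% (21.5 to 55.8) against 17%. At equal Des-/- swim height the list made up 0.409% (0.159 to 1.05) of members and 0.448% of kept peaks. Lemd2, a protein of the inner nuclear membrane, had 28, 34 and 25 reads. Tor1aip2, a nuclear envelope protein, had 26, 21 and 22 reads, the cytolinker Dst had 19, 19 and 17, and the cardiac cadherin Cdh2 had 18, 15 and 15. None of the 4 had a Des+/+ swim peak within 500 bp, and another Dst promoter peak was kept in all 4 lists.

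Among cardiac transcription and signalling factors, 4 of 29 promoters were missing from Des+/+ swim, or 13.8% (5.50 to 30.6) against 15.3% over all peaks. From Des-/- swim, 14 of 39 were missing, or 35.9% (22.7 to 51.6) against 17%. The Notch receptor gene Notch4, active mainly in endothelium, had 22, 57 and 28 reads and lay 26 bp from a Des+/+ swim peak. Notch2 had 20, 26 and 19 reads with no such peak nearby. The conduction system factor Tbx3 had 19, 23 and 19 reads, and the muscle transcription factor Mef2c had 15, 22 and 18 reads, 403 bp from a Des+/+ swim peak. Other promoter peaks of Notch4 and Tbx3 were kept in all 4 lists. The kept peak beside the Notch4 member had the same 57 and 28 reads in Des-/- basal and Des-/- swim.

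Immediate early and stress genes were nearly all kept. At equal Des-/- swim height they made up 0.102% (0.0181 to 0.577) of members and 0.570% of kept peaks. That kept share lay just inside the interval here and above it in each alternative run. Of 52 promoters, 1, or 1.92% (0.340 to 10.1) against 15.3% over all peaks, was missing from Des+/+ swim. From Des-/- swim, 2 of 53 were missing, or 3.77% (1.04 to 12.8) against 17%. The 1 missing from Des+/+ swim was Klf10, with 22, 37 and 15 reads, 369 bp from a Des+/+ swim peak. Another Klf10 promoter peak was kept in all 4 lists. Respiratory chain genes were missing from each swim list at the same share, 5 of 79 or 6.33% (2.73 to 14.0). That interval lay below the shares over all peaks, 15.3% and 17%. At equal Des-/- swim height they made up 0.512% (0.219 to 1.19) of members and 1.06% of kept peaks, inside the interval. Among the 5 missing from Des+/+ swim were the complex I subunit and assembly genes Ndufaf1 (19, 20 and 25 reads), Ndufs8 (28, 38 and 18) and Ndufa5 (18, 23 and 15) and the complex III gene Uqcr11 (24, 16 and 23).

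In most housekeeping groups the interval held the share over all peaks of 15.3%, with the mitochondrial ribosome above it and chaperones below it. At equal Des-/- swim height, the mitochondrial ribosome list made up 2.05% (1.33 to 3.14) of members and 1.63% of kept peaks. Chaperones made up 0.512% (0.219 to 1.19) and 0.941%, so both kept shares lay inside the interval. Genes of the mitochondrial ribosome, import and carriers had 20 of 86 promoters missing from Des+/+ swim, or 23.3% (15.6 to 33.2), and 13 of 79, or 16.5%, missing from Des-/- swim. Mrpl41, a mitochondrial ribosomal protein, had 19, 30 and 27 reads, and the inner membrane fusion GTPase Opa1 had 26, 29 and 23. Translation factors and tRNA synthetases had 14 of 73, or 19.2% (11.8 to 29.7), with the arginyl-tRNA synthetase Rars1 at 23, 27 and 26 reads and the initiation factor subunit Eif3m at 31, 35 and 23.

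Vesicle and autophagy genes had 39 of 237 missing, or 16.5%, among them Rabgap1 (23, 28 and 28 reads) and the SNARE gene Sec22b (23, 30 and 27). RNA processing genes had 31 of 197, or 15.7%, DNA repair and cell cycle genes 25 of 148, or 16.9%, and chromatin genes 21 of 136, or 15.4%. Transporter and transmembrane genes had 33 of 194, or 17%, with Tmem167 at 15, 30 and 30 reads and the ATP-binding cassette gene Abcc10 at 26, 29 and 25. Proteasome and ubiquitin genes had 30 of 238, or 12.6%, with the F-box gene Fbxl20 at 39, 42 and 28 reads and the proteasome ATPase Psmc5 at 27, 30 and 26.

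Zinc finger genes had 24 of 184 missing, or 13.0%, with Zfp383 at 24, 33 and 27 reads. Non-coding and predicted genes had 41 of 279, or 14.7%, with the microRNA gene Mir7668 at 26, 27 and 28. The general transcription machinery had 8 of 74, or 10.8%, with the Mediator subunit Med4 at 21, 19 and 25. Cytosolic ribosomal proteins and kinases had 8 of 76, or 10.5%, with Rpl38 at 30, 36 and 22, and chaperones had 5 of 73, or 6.85% (2.96 to 15.1), with Hspa2 at 29, 30 and 26.

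**Figure D4:**
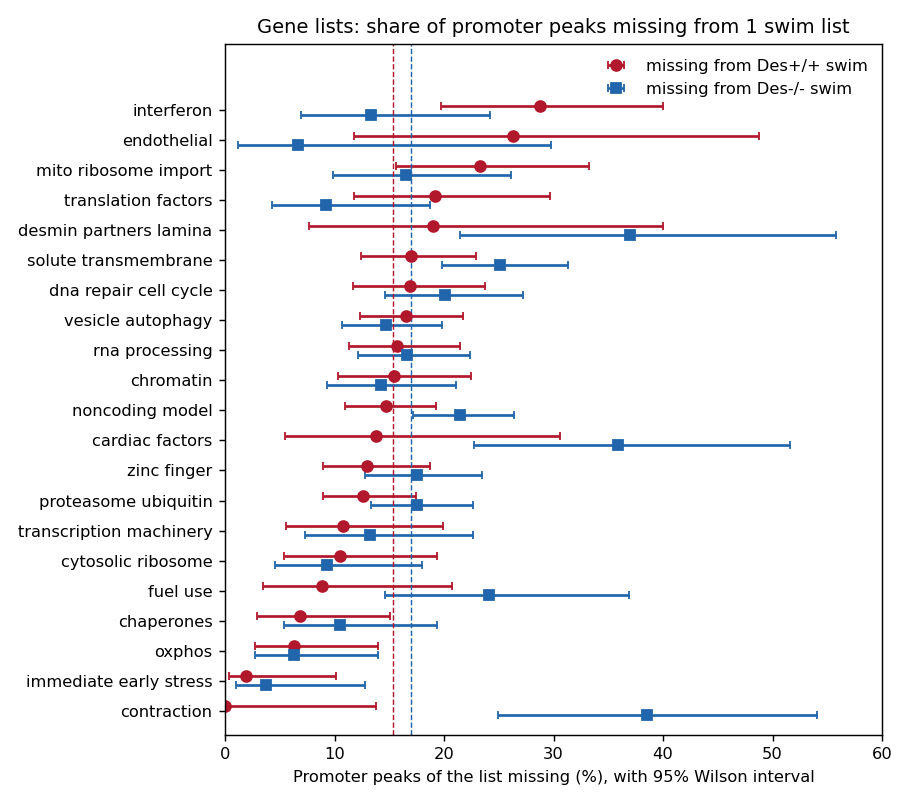
Share of each list's promoter peaks missing from Des+/+ swim (circles) or from Des-/- swim (squares) in percent (x), with 95% Wilson intervals, for lists with at least 15 such peaks (y). Dashed lines mark the shares over all peaks, 15.3% and 17%, and the contraction list stands at 0% and 38.5%.

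Endothelial genes were few but included 3 SoxF factors, which specify blood vessels. Of 19 endothelial promoters in both Des-/- lists, 5, or 26.3%, were missing from Des+/+ swim, with an interval of 11.8 to 48.8 that held the 15.3% over all peaks. From Des-/- swim, 1 of 15 was missing, or 6.67% (1.19 to 29.8) against 17%. Sox7 had 24, 34 and 30 reads, Sox17 had 25, 15 and 21, and Sox18 had 16, 16 and 18. The receptor phosphatase Ptprb had 19, 25 and 23 reads and the nitric oxide synthase Nos3 had 19, 17 and 23, the latter 75 bp from a Des+/+ swim peak. Other promoter peaks of Sox17, Ptprb and Nos3 were kept in all 4 lists. The 14 kept endothelial promoters had median heights of 18 reads in Des+/+ swim and 23 in Des-/- swim. All 5405 kept peaks were likewise lower in Des+/+ swim, with medians of 24 and 29 reads.

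The other cell type lists added a single member each or none. Cd14, a monocyte receptor, had 15, 20 and 15 reads and was the only leukocyte promoter among the 9976. Smtn, a smooth muscle protein, had 27, 32 and 18 reads. The fibroblast list had 0 of 4 promoters missing. In chromatin of mixed cells, fewer cells of a type and less acetylation per cell cannot be told apart.

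Interferon-response genes recurred among the members. The list of 121 such genes was written after the members' names had been seen, so its counts are no independent evidence. It had 21 of 73 promoters missing from Des+/+ swim, or 28.8% (19.7 to 40) against 15.3% over all peaks, and 8 of 60 missing from Des-/- swim, or 13.3% (6.91 to 24.2) against 17%. It made up 2.15% (1.41 to 3.26) of the members and 1.10% of weighted kept peaks. Of the 21, 18 had no Des+/+ swim peak within 500 bp.

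The highest of these 18 was Oasl2, an antiviral oligoadenylate synthetase-like protein, with 25, 35 and 29 reads. Xaf1, a pro-apoptotic protein, had 36, 38 and 22 reads. Irgm2, an immunity-related GTPase, had 30, 33 and 24 reads.

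Further members were Herc6 (20, 31 and 24 reads), the double-stranded RNA receptor gene Tlr3 (20, 24 and 22), the guanylate-binding protein gene Gbp3 (35, 21 and 21), the antiviral gene Ifit3 (23, 15 and 21) and the cytokine gene Il15 (21, 19 and 21). Usp18, which removes ISG15 from proteins, had 18, 15 and 16 reads, and Isg15 itself had 15, 15 and 15, the lowest height the lists hold. Promoters of inducing factors were present in both swim lists. Stat2 had 43 reads in Des+/+ swim and 35 in Des-/- swim, Irf7 had 18 and 20, and Irf9 had 26 and 33.

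The interferon members had a median CpG ratio, observed over expected, of 0.284, against 0.779 for all members. Other interferon promoters were low too, at 0.465 for kept ones and 0.285 for those missing in both swim lists. The ratio was 0.426 for those missing only in Des-/- swim and 0.189 for those without a Des-/- basal partner. Of the 21 interferon members, 13 held GAAANNGAA within the 300-base window, as did 22 of 52 kept interferon promoters and 7.27% of all members. The motif is printed in capitals in the Isg15, Ifit3 and Usp18 sequences above, and the Ifit3 window had a CpG ratio of 0.0554 where that of Sox7 had 0.785. A match describes letters in the window and not binding.

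Over all members the promoter sequence was close to that of kept peaks. GC content of the 300 bases had a median of 60.7% in both, and the median CpG ratio was 0.779 against 0.777. A CpG ratio of at least 0.6, typical of CpG islands, was found in 74.5% (71.7 to 77.1) of members and 71.7% of weighted kept peaks. The GC box was found in 64.4% (61.3 to 67.3) of members, 64.6% of weighted kept peaks and 35.7% of all 32851 RefSeq promoters of the same length.

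The CCAAT box was found in 40.6% (37.6 to 43.7) of members, 36.3% of weighted kept peaks, 34.6% of the mirror class and 37.4% of all promoters. Searched in the whole peak it was in 51.5% of members and 60.5% of the wider kept peaks. The ETS motif CCGGAAG was found in 20.4% (18 to 23) of members, 18.1% of weighted kept peaks and 8.86% of all promoters. The cardiac MEF2 motif CTAAAAATA was found in 0.307% (0.104 to 0.899) of members, 0.791% of weighted kept peaks and 0.517% of all promoters, and the GATA motif AGATAA in 4.91%, 5.83% and 11.2%.

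Shares for the remaining motifs, for members, weighted kept peaks and all promoters, were 5.42%, 5.57% and 13.6% for the TATA box TATAAA, 4.20%, 4.49% and 1.87% for the NRF1 motif CGCATGCG, and 8.90%, 7.83% and 6.34% for the YY1 motif AAGATGG. They were 3.38%, 3.52% and 1.79% for the cAMP response element TGACGTCA and 10.8%, 8.99% and 7.15% for the E-box CACGTG. They were 1.64%, 2.20% and 0.995% for the ZBTB33 motif TCTCGCGA, 3.58%, 3.80% and 5.20% for the AP-1 motif TGAGTCA, and 0.512%, 0.432% and 0.603% for the heat shock element. Of these 8, the share in weighted kept peaks lay within the interval of the members for all but the E-box, where the interval started at 9.05%. Both strands were searched for every motif. A start on the other strand within 1000 bp upstream was found for 16% (13.8 to 18.4) of members and 13.2% of weighted kept peaks.

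Members were more frequent on chromosome X than on any autosome, a comparison chosen after the values were seen. Of 110 chromosome X promoter peaks in both Des-/- lists, 34, or 30.9% (23 to 40.1), were missing from Des+/+ swim, while the autosomes ranged from 10.3% on chromosome 10 to 17.7% on chromosome 16. At equal Des-/- swim height, chromosome X held 3.48% (2.50 to 4.82) of members and 2.03% of kept peaks. From Des-/- swim, 17 of 93, or 18.3% (11.7 to 27.3), were missing, while chromosome 8 had the highest share missing from Des-/- swim, at 26.3% (21.9 to 31.2). The X-linked members included Rlim, the glycosyltransferase gene Ogt (23, 30 and 18 reads), the cohesin gene Stag2 (19, 16 and 19), the remodeller gene Atrx (21, 27 and 16), the repressor gene Bcor (20, 22 and 16) and the gene Msl3 of a histone acetyltransferase complex (22, 39 and 20).

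Values that bear on the sex of the mice, which the labels used here do not give, differed between the lists. The mean input height of chromosome X peaks was 0.788 of that of autosomal peaks in Des+/+ hearts before and 0.900 after swimming, and 0.867 before and 0.826 after in Des-/- hearts. The Y-linked gene Ddx3y had a promoter peak in all 4 lists, at 16 to 23 reads. For the Y-linked genes Kdm5d and Uty, no list held a promoter peak. The Y-linked gene Eif2s3y had one in Des+/+ basal at 16 reads and in Des-/- swim at 18 reads and none in the other 2 lists, and Xist, the RNA that silences 1 X chromosome in females, had one only in Des-/- basal, at 17 reads. Their part in the chromosome X share was not tested.

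**Figure D5:**
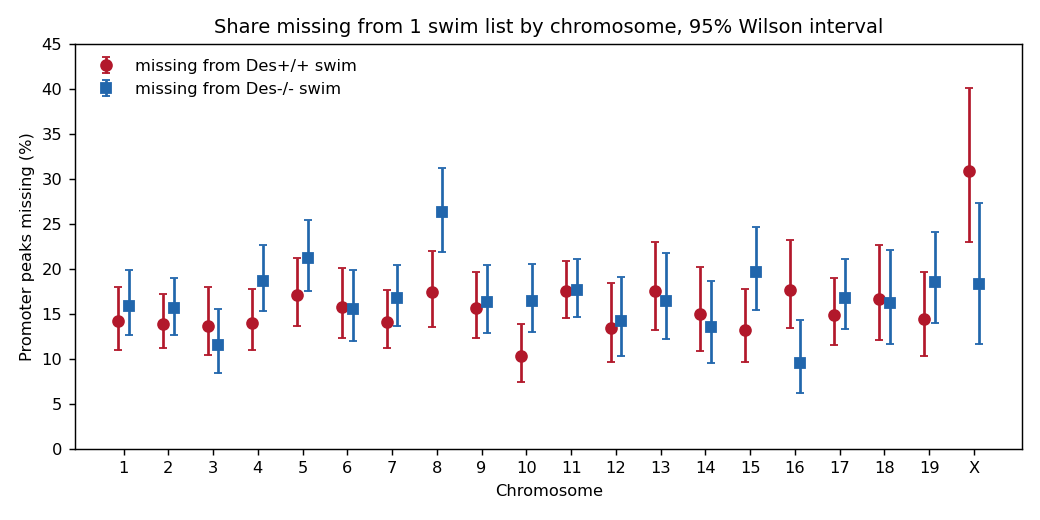
Share of promoter peaks missing from Des+/+ swim (circles) or from Des-/- swim (squares) in percent (y) on each chromosome (x), with 95% Wilson intervals. Chromosome X stands at 30.9% for Des+/+ swim, above the autosomal range of 10.3% to 17.7%, and at 18.3% for Des-/- swim.

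Peaks of lamin A/C, which lines the inner nuclear membrane, overlapped few members. The lamin A/C list of Des+/+ swim held 635 peaks and overlapped 2 members. The other lamin A/C lists, of 188 peaks for Des+/+ basal, 831 for Des-/- basal and 536 for Des-/- swim, overlapped 0. The 2 were Rps12, a ribosomal protein gene with 17, 19 and 15 reads of H3K27Ac, and the microRNA gene Mir8120 with 17, 20 and 16. Of the 5405 kept peaks, 4 overlapped a lamin A/C peak of Des+/+ swim, 3 one of Des-/- basal and 2 one of Des-/- swim.

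Just inside the distance limit was a Tcf4 peak 989 bp from the start (16, 42 and 28 reads), and just outside was Ift122 at 1005 bp (18, 24 and 15 reads). Just inside the width limit was Fscn1 at 2414 bp (20, 24 and 19 reads), and just outside was Galnt15 at 2671 bp (27, 20 and 15 reads). Esyt1, with an input height of 9 reads (28, 36 and 29 reads), was inside the input limit, and 0 peaks with this pattern were outside it.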

How the data were processed

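Chromatin of cardiomyocytes from 8 precipitated and 8 input libraries was sequenced by the authors. Per the labels, the reads were processed with Bowtie2 2.4.4, SAMtools 1.13 and ChIPseeker 1.36.0 on GRCm38 (mm10), and peaks were called against input by laboratory scripts. The deposited peak height and input height are coverage signal values in reads, with no stated scaling between libraries. The deposited fold change is the ratio of height plus 1 to input height plus 1, and was used only to match peaks. The deposited p-values and false discovery rates were not used. The deposited distance to the start is a score in bp. Read totals are not given in the sources used here.

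Peaks were paired by an overlap of at least 1 bp, taking the highest partner. Kept peaks were weighted by exact Des-/- swim height, and no member lacked a kept peak of its height. Python 3.11.15, pandas 2.3.3, scipy 1.17.1 and pysam 0.24.0 were used, and pairing and weighting were tested on simulated data. No test between groups was possible with 1 library per group. The members, the 24 gene lists and the 14 motifs were chosen with earlier results of these data known, and the interferon list and GAAANNGAA after the members' names were seen. Named genes were the 20 highest members in Des-/- swim, members of the lists by height, those nearest a Des+/+ swim peak or a limit, and those with lamin A/C. Genes named for being away from a Des+/+ swim peak, for interferon response or for chromosome X were chosen after their values were seen. Some genes that the rule names are not reported here.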

Additional observations from a re-analysis of the deposited data

Results flagged for a closer look

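At 155 of the 977 promoters, the Des-/- swim peak was higher than the Des-/- basal peak while Des+/+ swim had no overlapping peak. Of these, 127 had no Des+/+ swim peak within 500 bp, and the others had one beside them. The absence of an overlapping peak was fixed by how the promoters were chosen and gives no height, so no direction from basal to swim was measured in Des+/+ hearts. With 1 library per group, a difference between the genotypes was not tested.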

How the results depend on the processing

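The count of 977 stayed between 759 and 1049 under the 11 other choices of overlap, starting list, distance, width, input, neighbouring peaks and chromosome X. It was 429 with a Des-/- swim height of at least 20 reads, 41 with at least 30, 576 with each list reduced to its 10000 highest peaks, and 306 with Des+/+ basal and Des-/- swim heights of at least 20. The mirror count of 1106 became 313, 26, 612 and 257 under the same 4 choices. The excess of missing Des+/+ swim peaks at equal swim height was 3.30 percentage points. It was 2.37 when a peak within 500 bp counted as present, and it reversed to -9.41 by fold over input. Over the same peaks for both genotypes, with no matching on height, it was -1.40. The cause was not tested. The GC box share of members less that of kept peaks was -0.264 points, and was -4.07 against unweighted kept peaks, -6.92 weighted by fold and -3.79 in the peak itself. The CCAAT box difference of 4.37 points reversed to -8.97 in the peak itself, where member peaks are shorter. Without the interferon list, which was written later and also lay outside, the number of gene lists whose share of kept peaks lay outside the interval of their share of members was 4. These were contraction and fuel use, with fewer members, and leukocyte and smooth muscle and pericyte, with more. The leukocyte list held 1 member and 0 kept peaks, as did the smooth muscle and pericyte list, so each rested on 1 peak. The number of lists outside was 7 against unweighted kept peaks and 4 weighted by fold. It was 6 both with the longest-overlapping partner and without members near a Des+/+ swim peak. The ETS motif difference of 2.27 points was -2.51 in the peak itself. Basal heights of members stayed below those of kept peaks in the 4 alternatives run. No paired analysis was possible because each group had 1 library, and none could be left out. The alternatives on neighbouring and partner peaks of the missing list, on the same peaks for both genotypes and on chromosome X were chosen after seeing the data, as was the split by Des+/+ basal height. Read totals are unknown, and the many heights near the lowest of 15 reads limit every count here.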
